A study of Mus musculus with 187 samples.

Results

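The catalytic core of mitochondrial complex IV (cytochrome c oxidase) is surrounded by nuclear-encoded subunits, and several of these exist as isoforms made from separate genes. The genes described here are the 9 that form isoform pairs or belong to the same small families, Cox4i1, Cox4i2, Cox6a1, Cox6a2, Cox7a1, Cox7a2, Cox7a2l, Cox8a and Cox8b. They were taken by name from the deposited tables, which held 36558 genes, and all 9 were found. The hearts are those of the HMDP, a panel of inbred mouse strains and of recombinant inbred lines bred from pairs of them, and 98 male and 89 female libraries were sequenced. Every mouse was given chow for its first 8 weeks and a diet rich in fat and sucrose for the next 8, and hearts were taken at 16 weeks, so all groups share the diet and no library of another diet was used here. The strains comprised 45 BXD (bred from C57BL/6J and DBA/2J), 20 AXB/BXA (from A/J and C57BL/6J), 6 CXB (from BALB/c and C57BL/6 lines), 6 BXH (from C3H/HeJ and C57BL/6J) and 29 other inbred strains, the parents among them. One BXD strain, BXD24/TyJ-Cep290<rd16>/J, carries the rd16 allele of Cep290 per its name. Most strains had 1 library of each sex, 78 strains had both sexes, and a strain is therefore represented by few mice. The labels do not state that libraries of 1 strain came from separate litters or cages, so p-values measure the spread between these libraries.

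Complex IV passes electrons from cytochrome c to oxygen and pumps protons across the inner membrane. In heart and skeletal muscle the contractile-tissue forms Cox6a2, Cox7a1 and Cox8b take the place of the ubiquitous forms Cox6a1, Cox7a2 and Cox8a. Cox4i1 is the common form of subunit 4, and Cox4i2 is a form best known from lung and from oxygen-sensing and vascular cells. Cox7a2l (also called SCAF1) is related to Cox7a1 and Cox7a2 but links complex IV to complex III in respiratory supercomplexes, and C57BL/6J and BALB/cJ are known to carry a small in-frame deletion in its coding sequence that strains such as DBA/2J lack.

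Total estimated counts ranged from 28.99 M to 80.44 M per library, with a median of 45.38 M, so that counting error was small for every member (the lowest single value was 90 counts, for Cox4i2). The 13 mtDNA-encoded genes took 20.7% to 61.3% of a library. Levels depended on transcript length by differing amounts between libraries. The slope of level on log transcript length over 12593 genes ran from -0.42 to 0.12, with a median of 0.03, and it was under -0.2 in 13 libraries (7 male and 6 female, of 11 strains), in which short transcripts were over-represented. The members are short (360 to 1129 bases in their longest transcript), and over the means of all strains their log2 CPM correlated with this slope, as a description, with Pearson r between -0.94 (Cox8b) and -0.63 (Cox7a2l). Values without these 13 libraries are therefore given beside the main ones for several results, and ratios between isoforms are used for comparisons. The cardiomyocyte markers Myh6 and Tnni3 were abundant in every library (at least 3363 and 2501 TPM), whereas the fast skeletal muscle myosins Myh4 and Myh1 stayed at or under 0.06 and 0.48 TPM. Other tissue markers varied widely between libraries. The sum of 5 atrial genes ran from 31.6 to 9466 TPM and that of 5 blood genes from 766 to 76011 TPM. The male of C57BLKS/J had 131 TPM of lung markers, against a male median of 0.15 TPM. In bulk tissue, fewer cells of a type and less RNA per cell cannot be told apart.

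Promoters are shown first because the heart form of each pair was the more abundant. RefSeq sequence (GRCm38.p6, 250 bases before to 50 after the annotated start) was matched for 6 of the 9 members. CpG dinucleotides are in capitals in the promoters of the Cox7a and Cox8 pairs, which contrast a heart form with a ubiquitous form:
Cox7a1 (chr7:30183921-30184220, + strand): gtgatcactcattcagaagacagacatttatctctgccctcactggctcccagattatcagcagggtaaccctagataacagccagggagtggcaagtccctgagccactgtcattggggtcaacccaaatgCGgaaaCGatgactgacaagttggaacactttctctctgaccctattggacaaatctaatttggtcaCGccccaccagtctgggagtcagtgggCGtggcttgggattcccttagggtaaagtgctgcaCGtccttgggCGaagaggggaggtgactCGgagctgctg
Cox7a2 (chr9:79759804-79760103, - strand): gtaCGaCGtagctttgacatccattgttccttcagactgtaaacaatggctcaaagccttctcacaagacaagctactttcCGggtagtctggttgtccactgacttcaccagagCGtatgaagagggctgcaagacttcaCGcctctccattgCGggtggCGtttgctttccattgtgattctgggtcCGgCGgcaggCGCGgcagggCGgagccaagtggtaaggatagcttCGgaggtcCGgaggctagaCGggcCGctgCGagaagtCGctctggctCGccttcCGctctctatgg
Cox8b (chr7:140900397-140900696, - strand): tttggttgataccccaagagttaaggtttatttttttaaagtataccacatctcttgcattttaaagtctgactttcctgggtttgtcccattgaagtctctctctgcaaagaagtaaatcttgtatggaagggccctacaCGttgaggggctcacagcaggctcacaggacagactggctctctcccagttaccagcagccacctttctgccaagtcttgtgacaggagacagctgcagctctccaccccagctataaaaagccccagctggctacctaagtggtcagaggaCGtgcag
Cox8a (chr19:7217567-7217866, - strand): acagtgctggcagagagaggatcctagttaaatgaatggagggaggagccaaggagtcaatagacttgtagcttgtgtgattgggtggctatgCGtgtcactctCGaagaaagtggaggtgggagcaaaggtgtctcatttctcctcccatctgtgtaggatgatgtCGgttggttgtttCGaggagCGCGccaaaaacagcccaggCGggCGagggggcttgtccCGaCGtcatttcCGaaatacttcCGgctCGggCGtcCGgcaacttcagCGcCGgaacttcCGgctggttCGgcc
Of the heart forms, Cox7a1 had 7 CpGs, the median of all promoters, and Cox8b had 2, while no promoter was matched for Cox6a2. The ubiquitous forms had more, 20 in Cox7a2, 19 in Cox8a and 32 in Cox6a1. Cox7a2l had 19. Among all 32544 RefSeq promoters of this length the median was 7 CpGs, 51.1% had 7 or fewer and 28.3% had 19 or more. Sequence motifs were searched on both strands, and no match overlapped a match of another motif. A GC box (GGGCGG, in 35.9% of all promoters) was present in Cox6a1, Cox7a2 and Cox7a2l. The ETS core (CGGAAG, in 17.0%) was present in Cox6a1, Cox7a2 and Cox8a. The letters TATAAA (in 13.6%) were found in Cox8b alone among the 6, the NRF1 motif (in 0.97%) in Cox6a1 alone, and the MEF2 motif (in 3.70%) in none. An E-box (CANNTG, in 72.3%) was in all but Cox6a1, and CCAAT (in 37.4%) was in Cox6a1, Cox7a1 and Cox8a. These matches are descriptions of letters in a short window.

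Every member was detected in every library, and on the TPM scale, which divides by transcript length, the heart forms and Cox4i1 were the most abundant. Cox6a2 was highest, with a median of 1993 TPM (969 to 6017). Cox7a1 (median 1484 TPM, 853 to 5210), Cox4i1 (1471 TPM, 892 to 3813) and Cox8b (1453 TPM, 866 to 5625) followed and did not differ beyond their spread. Cox7a2 stood at 379 TPM (256 to 874). Cox7a2l (159.3 TPM, 81.2 to 242) and Cox8a (155.1 TPM, 68.2 to 351) lay together, Cox6a1 was lower at 104.3 TPM (60.6 to 279), and Cox4i2 was lowest at 8.55 TPM (4.45 to 28.99). The highest values of Cox4i1, Cox4i2, Cox6a2, Cox7a1 and Cox8b were all from the female of RIIIS/J, and the lowest of Cox4i1, Cox6a1, Cox6a2, Cox7a1, Cox7a2l and Cox8a from a male of CXB6/ByJ. Both belong to the 13 libraries with a steep length slope (-0.38 and -0.25), and the male of CXB6/ByJ also had the highest mtDNA-encoded share, 61.3%. Without the 13 libraries the highest Cox6a2, Cox7a1 and Cox8b values were 2768, 2261 and 2334 TPM, and the coefficients of variation fell to between 11.4% (Cox4i1) and 22.1% (Cox4i2).

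**Figure D1:**
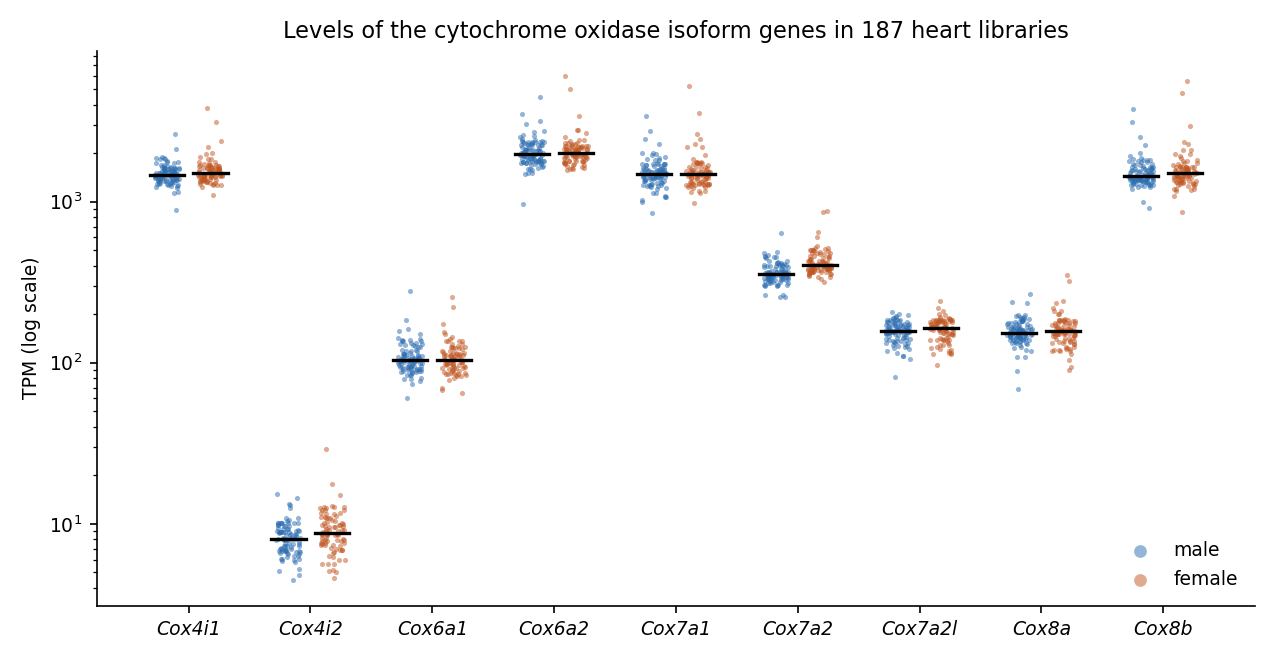
TPM of the 9 isoform genes (log axis) in 98 male and 89 female heart libraries; each point is a library and each bar the median of a sex. Cox4i1, Cox6a2, Cox7a1 and Cox8b had medians from 1453 to 1993 TPM, and Cox4i2 had a median of 8.55 TPM.

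The heart form dominated each of the 3 pairs that have one. Cox6a2 made up 95.1% of the summed TPM of Cox6a2 and Cox6a1 at the median (86.5% to 96.8%), Cox8b 90.6% of its pair (85.6% to 94.6%) and Cox7a1 79.7% of its pair (69.1% to 85.7%). Without the 13 libraries the highest shares of Cox7a1 and Cox8b were 83.9% and 94.4%. Cox4i2, which is not the heart form of subunit 4, was 0.57% of its pair (0.33% to 0.80%). As ratios, the medians were 19.3-fold for Cox6a2/Cox6a1, 9.64-fold for Cox8b/Cox8a and 3.93-fold for Cox7a1/Cox7a2. The log2 ratios varied little between libraries, with SDs of 0.24, 0.24 and 0.23. The size of these ratios depended on the division by transcript length. On estimated counts the mean log2 ratios in males and females were 1.02 and 0.87 for Cox7a1/Cox7a2 (2.06 and 1.85 on TPM). They were 2.36 and 2.42 for Cox8b/Cox8a (3.28 and 3.31 on TPM), and 4.58 and 4.59 for Cox6a2/Cox6a1 (4.24 and 4.27 on TPM).

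Strains differed in which ratio was extreme. For Cox6a2/Cox6a1 the strain means ranged from 10.3-fold in AXB19b/PgnJ to 30.6-fold in LP/J, with a median of 19.3-fold. The low value of AXB19b/PgnJ came from 1 library: its male had 1783 TPM of Cox6a2 but 279 TPM of Cox6a1 and a log2 ratio of 2.68, against 4.06 in its female. That male also had the highest Cox6a1 and one of the highest Cox8a levels (268 TPM), the highest brown adipose marker sum (532 TPM over 4 genes, 387 TPM of it Ucp1, where the median library had 0.09 TPM of Ucp1) and 389 TPM of the 6 adipose markers. The part of these tissues in the ratio was not tested. LP/J had 1 library. The next lowest strain was SJL/J at 15.2-fold (log2 ratios 4.13 and 3.72 in its male and female) and the next highest 129X1/SvJ at 25.2-fold.

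The Cox7a1/Cox7a2 ratio was lowest in I/LnJ, at 2.37-fold, where both libraries were low. The I/LnJ male had 1074 TPM of Cox7a1 and 426 TPM of Cox7a2, and the female had 1124 and 503 TPM. Cox7a1 was thus under the panel median in both and Cox7a2 above it, and their length slopes were 0.04 and 0.05. BXA16/PgnJ followed at 2.59-fold in its single library. The highest strain means, 5.28-fold in CXB7/ByJ and 5.07-fold in RIIIS/J, rested on libraries with a steep length slope (-0.37 in the CXB7/ByJ male and -0.38 in the RIIIS/J female).

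The Cox8b/Cox8a ratio was lowest in BXA16/PgnJ (5.96-fold, 1 library), BXA11/PgnJ (6.84-fold) and NZW/LacJ. In NZW/LacJ both libraries carried the 2 lowest Cox8b levels of the libraries without a steep slope, 910 TPM in the male and 866 TPM in the female, and their log2 ratios were 2.63 and 2.94 against a median of 3.27. The means of 4 strains stood above the others by a gap of 0.27 on the log2 scale. BXD38/TyJ (16.9-fold), BXD24/TyJ-Cep290<rd16>/J (15.8-fold) and CXB7/ByJ (15.7-fold) had 1 library each. RIIIS/J (15.5-fold) had 2, of which the female, with a steep length slope (-0.38), had the highest log2 ratio of all libraries (4.12). The length slope of the BXD38/TyJ library was 0.04.

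The parents of the recombinant panels were not among the extreme strains of the heart ratios. The strain mean of DBA/2J was above the median for Cox7a1/Cox7a2 (log2 ratio 2.20, median 1.97) and that of A/J below it for Cox6a2/Cox6a1 (4.03, median 4.27). C57BL/6J had log2 Cox7a1/Cox7a2 ratios of 1.92 and 2.04 in its males and 1.75 in its female. DBA/2J had 2.24 (male) and 2.15 (female), A/J 2.16 and 1.83, C3H/HeJ 2.13 and 1.91, and BALB/cJ 2.05 and 1.93. In each of these strains the male lay above the female. No member was called between any of these parents and C57BL/6J (edgeR quasi-likelihood F test over all genes, adjusted p under 0.05), where 10.5%, 8.23%, 9.82% and 9.27% of 15942 genes were called for DBA/2J, A/J, C3H/HeJ and BALB/cJ. The lowest adjusted p of a member was 0.25, for Cox7a2 in DBA/2J (log2 fold change -0.50, SE 0.25), with 2 or 3 libraries a strain. At an unadjusted p under 0.05 none of the 9 was called either in any of the 4 comparisons. The smallest unadjusted p of a member in the same test was 0.0525, for Cox7a2 in DBA/2J, at rank 3369 of 15942 genes. The share of all genes under 0.05 without adjustment was not counted.

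To test whether the members differ between strains, all strain terms were tested together in a model with sex, for the 78 strains represented by males and females. All 9 members were called, but so were 73.7% of the 15890 genes tested, and the count is near what that share gives. The F statistic was largest for Cox7a2l (3.41, adjusted p = 1.93e-07) and Cox7a1 (2.94, adjusted p = 4.11e-06), and smallest for Cox8a (1.73, adjusted p = 0.0115). With the counts of Gm6969 added, Cox7a2l had F = 2.93 and was no longer above Cox7a1. The median over the members was 2.51, against 1.97 over all genes. All 9 members remained called with the length slope as a covariate and in the other settings tried. Of other complex IV genes, 8 of 8 structural subunits tested were called (F from 1.499 in Cox5a to 3.801 in Cox6b2, the testis-type form of subunit 6B), as were 3 of 3 mtDNA-encoded subunits (mt-Co3 3.36, mt-Co1 1.93). Of the assembly and supercomplex factors 19 of 23 were called, from 0.50 in Taco1, an activator of mt-Co1 translation, to 17.9 in Cox18, which helps insert mt-Co2 into the membrane.

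To see how far a ratio is shared by the mice of a strain, its male and female values were compared over 78 strains. The Cox7a1/Cox7a2 ratio had the largest Pearson r of the 3 heart ratios, r = 0.59 (Spearman rho = 0.52; permutation p = 1e-05 for each, the smallest the 100000 permutations can give, adjusted p = 2.5e-05 over 5 ratios). It was 0.53 when I/LnJ and CXB6/ByJ, whose male values were the most distant from the median, were left out. Within families it was 0.41 in 34 BXD strains (permutation p = 0.0146), 0.59 in 13 AXB/BXA strains (p = 0.0338, or r = 0.54 and p = 0.0598 with the length slope regressed out) and 0.74 in 24 other inbred strains (p = 6e-05). Leaving out the 13 libraries with a steep slope gave r = 0.72 over 70 strains. For Cox8b/Cox8a r was 0.39 (rho = 0.31, adjusted p = 0.000713 and 0.0063), and 0.39 without the 2 farthest strains. Leaving out the 13 libraries with a steep slope gave r = 0.28, or 0.23 without the 2 farthest strains (permutation p = 0.0605), and 0.41 in other inbred strains (p = 0.0609). With all libraries it was 0.63 in other inbred strains, but 0.15 in BXD (p = 0.384) and 0.29 in AXB/BXA (p = 0.322, permutation tests). For Cox6a2/Cox6a1 r was 0.30 (rho = 0.36, adjusted p = 0.00601 and 0.00168) and 0.32 without the 2 farthest strains, with 0.09 in BXD (p = 0.621), 0.39 in AXB/BXA (p = 0.185) and 0.47 in other inbred strains (p = 0.0219). Thus neither of these pairs passed within the recombinant panels taken alone. For Cox4i2/Cox4i1 r was 0.43 (rho = 0.41), 0.37 without the 2 farthest, 0.26 in BXD, 0.45 in AXB/BXA and 0.71 in other inbred strains. Whether r differs between families was not tested.

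**Figure D2:**
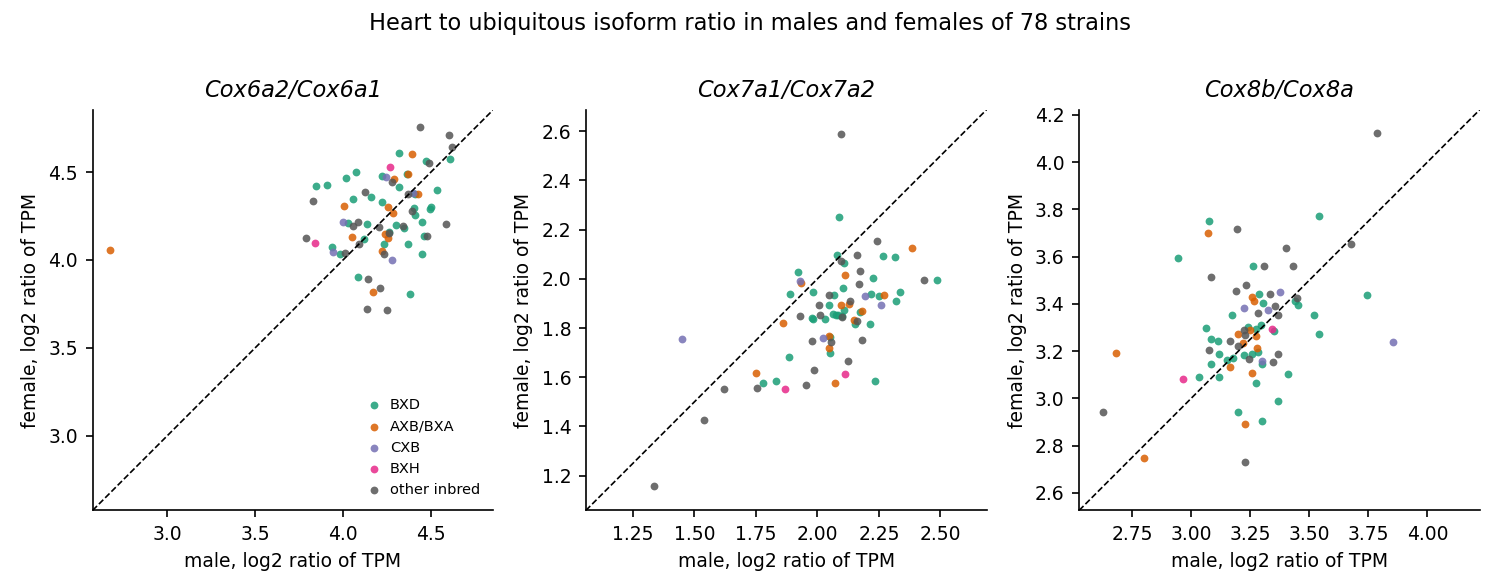
Log2 ratio of heart to ubiquitous isoform (TPM) in the male (x axis) and the female (y axis) of 78 strains, coloured by family; the dashed line marks equal values. In Cox7a1/Cox7a2 70 of the 78 strains lie below the line, with the higher ratio in the male, while in the other pairs the strains lie on both sides.

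One pair differed between the sexes over all libraries. The Cox7a1/Cox7a2 ratio was higher in males, with a mean log2 ratio of 2.06 ± 0.21 (SD, n = 98) against 1.85 ± 0.20 in females (SD, n = 89). The difference was 0.20 on the log2 scale (SE 0.03; two-sided permutation test, p = 1e-05, adjusted p = 5e-05 over 5 ratios), and the male was higher in 70 of 78 strains. It was of the same size within families, 0.21 in BXD (30 of 34 strains), 0.23 in AXB/BXA (12 of 13) and 0.19 in other inbred strains (23 of 24). The Cox6a2/Cox6a1 ratio differed by -0.03 (SE 0.04, adjusted p = 0.473, permutation test, male higher in 38 of 78 strains) and Cox8b/Cox8a by -0.03 (SE 0.04, adjusted p = 0.473, 33 of 78 strains), and neither difference was larger than its SE. On estimated counts in place of TPM, Cox8b/Cox8a differed by -0.06 (SE 0.04), and with the strain as a block by -0.08 (adjusted p = 0.00651, permutation test, male higher in 24 of 78 strains). Cox4i2/Cox4i1 differed by -0.07 (SE 0.04, adjusted p = 0.0945, permutation test) over all libraries. When males and females were compared within strains, with the strain as a block, it was lower in males by -0.09 (adjusted p = 0.00553, sign-flip permutation test), and the male was the higher in 29 of 78 strains. Vascular markers had the same direction: the median sum of 8 pericyte and smooth muscle genes was 198.3 TPM in males (72.7 to 287) and 223.1 TPM in females (69.4 to 317), and that of 4 endothelial genes 142.4 TPM (36.1 to 212) and 158.1 TPM (44.96 to 239). On the TPM scale most genes had this direction, with a median of -0.08 over all genes, males against females, on log2(TPM + 1). The part of the vascular markers in the ratio was not tested.

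Of the members of the Cox7a pair, the ubiquitous form differed more between the sexes. Cox7a2 had 363 ± 55.3 TPM in males and 427 ± 89.4 TPM in females (SD, n = 98 and 89), whereas Cox7a1 had 1526 ± 340 and 1569 ± 524 TPM. The female had the higher Cox7a2 (normalized CPM) in 63 of 78 strains, and the ranges of the sexes overlapped. Marker sums that were also higher in females at the median were those of adipose tissue (15.3 against 7.52 TPM), fibroblasts (309 against 274 TPM) and cardiomyocytes (31375 against 28468 TPM). Brown adipose (34.6 against 33.3 TPM) and fast skeletal muscle (2.94 against 2.57 TPM) had this direction too, while atrium, blood and lung did not. The part of these tissues in Cox7a2 was not tested. On log2(TPM + 1) with limma the median of all genes was -0.08, males against females. There 234 genes were called higher in males and 6847 lower, so this direction was that of most genes on the TPM scale. Cox7a1 was higher in the male in 41 strains and in the female in 37. In edgeR's test over all genes without a block no member was called between the sexes, against 25.4% of 15942 genes. Cox7a2 had a log2 fold change of -0.13 (SE 0.06, adjusted p = 0.0771). With the strain as a block Cox7a2 was called (-0.17, adjusted p = 0.00199), as it was with the length slope as a covariate (-0.18, adjusted p = 4.91e-11), and in 6 of 9 alternatives in all, with values from -0.23 to -0.13, so its call depends on the model. The slope fit also called Cox8b (-0.07, adjusted p = 0.00294) and Cox4i2 (-0.09, adjusted p = 0.0425) as lower in males, and Cox4i2 was called with library totals (-0.15, adjusted p = 0.0295) and with limma. In the model without block or covariate the other 8 members had log2 fold changes between -0.05 (Cox4i2) and 0.08 (Cox6a1), with adjusted p from 0.131 to 0.894, and 6 of the 8 changed sign when library totals replaced TMM scaling, which moved the median of all genes from -0.01 to -0.09. Cox7a2l had a log2 fold change of 0.07 (SE 0.03, adjusted p = 0.131), or of 0.06 with the strain block (adjusted p = 0.0488). With the counts of the pseudogene Gm6969 added, described with the strains, it was 0.08 (adjusted p = 0.0207). Its ratio to Cox7a2 was higher in males by 0.18 (SE 0.04, permutation p = 2e-05, 70 of 78 strains), a comparison that shares Cox7a2 with the pair above.

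**Figure D3:**
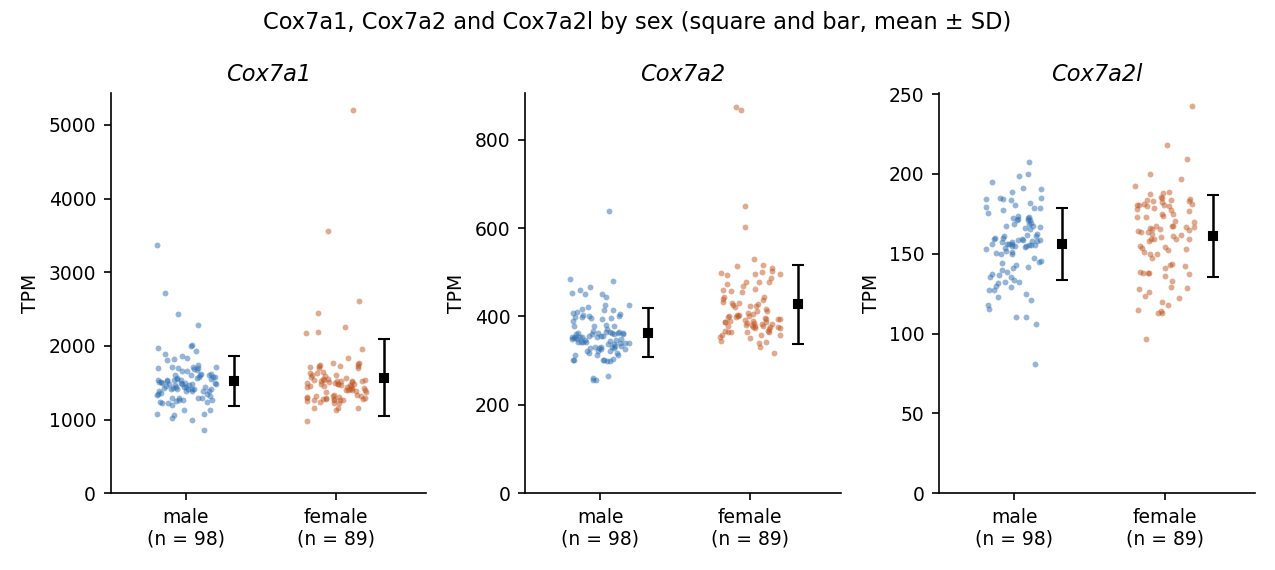
TPM of Cox7a1, Cox7a2 and Cox7a2l in male and female libraries; points are libraries, squares and bars the mean ± SD. The mean of Cox7a2 was 363 TPM in males and 427 TPM in females, while Cox7a1 and Cox7a2l overlapped more closely.

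Other complex IV genes were set beside the members. None of the 8 structural subunits tested was called between the sexes; their log2 fold changes ran from -0.12 (Cox6b2) to 0.17 (Cox5b, adjusted p = 0.0593), with a median of -0.002 against -0.007 over all genes. With the strain block 1 was lower in males, with library totals and with limma 3 were lower, and with the length slope 3 were lower and 1 higher. Of the 3 mtDNA-encoded subunits, mt-Co1 (0.23, SE 0.07, adjusted p = 0.00751) and mt-Co3 (0.18, SE 0.07, adjusted p = 0.0298) were higher in males. Only 1 of the 3 was called with library totals, with the title number or with the length slope as a covariate. Of 23 assembly and supercomplex factors 11 were higher in males and 0 lower, where 13.3% of all genes were higher and 12% lower. Sco2, a copper chaperone, had the largest value (0.23, SE 0.05, adjusted p = 0.000318). This count rests on the scaling: with library totals 3 were higher and 6 lower, and on log2(TPM + 1) 0 were higher and 4 lower.

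Cox7a2l needed its own account, because part of its sequence is repeated elsewhere in the genome. Of 1468 distinct 31-base words of its transcripts, 244 (16.6%) also occur in Gm6969, a processed pseudogene (ENSMUSG00000066553, chr12:24638669-24639010, - strand, GRCm38). kallisto, with which the authors made the counts, divides reads between compatible transcripts by words of this length. Of the other members, Cox4i2, Cox7a1, Cox8a and Cox8b shared no words with another gene and Cox7a2 shared 3.4%. Cox6a1 shared 18.45% of its words, with a gene whose median was 3 counts, and Cox6a2 6.15%, with Itgad (median 15.3 counts). Cox4i1 shared 12.92%, most of them with Emc8, which had 336 to 1302 counts, and how reads were divided between them was not tested. The pseudogene is 342 bases long and matched the 336-base coding sequence of Cox7a2l in the reference, which is of C57BL/6J, at 334 bases, with 2 substitutions and 6 extra bases. The stretch around the extra bases is shown because it is the main difference by which reads could be assigned to one or the other. The extra bases are in capitals:
Gm6969: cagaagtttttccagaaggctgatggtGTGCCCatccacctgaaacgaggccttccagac
Cox7a2l, reference: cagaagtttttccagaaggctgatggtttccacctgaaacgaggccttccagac
At one base of this window the sequences also differ by a substitution, A220T (pseudogene base first, position counted from 1 at the start of the pseudogene).

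The estimated counts of Gm6969 separated strains into 2 sets with nothing between their means. Of all strains, 51 had a Gm6969 share of the summed Gm6969 and Cox7a2l counts between 0% and 1.49%, and 55 had a share between 14.3% and 32.5%. C57BL/6J lay in the low set, with 58.6, 68.2 and 50.8 Gm6969 counts beside 7565, 7111 and 5181 Cox7a2l counts in its 3 libraries (0.77%, 0.95% and 0.97%). BALB/cJ did too, with 16.6 and 15.6 counts (0.24% and 0.17%). All 6 CXB strains, bred from these lines, were low (0% to 0.91%). DBA/2J was high, with 1864 and 3333 Gm6969 counts beside 5567 and 9130 of Cox7a2l (25.1% and 26.7%), and so were A/J (23.4% and 23.3%) and C3H/HeJ (23.7% and 25.03%).

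The panels bred from a low and a high parent held both kinds of strain. Low shares were seen in 26 of 45 BXD, 10 of 20 AXB/BXA and 3 of 6 BXH strains. Outside the panels, 6 of 29 inbred strains were low: C57BL/6J, BALB/cJ, C57BLKS/J (0.04%), C58/J (1.49%), NZW/LacJ (0.93%) and SEA/GnJ (0.13%). C57BLKS/J and C58/J are related to C57BL/6J by name and history, and the share in SEA/GnJ rests on 1 library. The male and female of a strain fell on the same side in 76 of 78 strains (39 low and 37 high). The exceptions were RIIIS/J, with 5.87% in the female and 22.8% in the male, and BXD73/RwwJ, with 6.34% in the female and 23.9% in the male. Both females belong to the 13 libraries with a steep length slope (both -0.38), and they were the only libraries between 1.83% and 14.5%. What set their intermediate values was not tested.

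**Figure D4:**
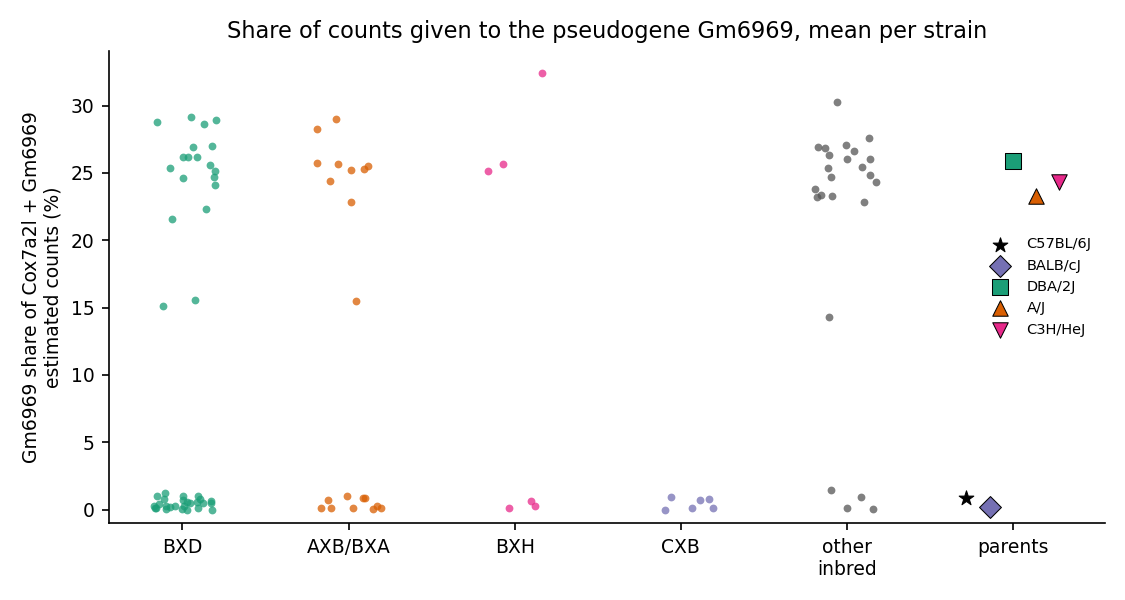
Gm6969 share (%) of the summed estimated counts of Cox7a2l and Gm6969, as the mean of each strain, by panel, with the parents marked. All CXB strains, C57BL/6J and BALB/cJ lie under 1%, DBA/2J, A/J and C3H/HeJ near 25%, and the BXD, AXB/BXA and BXH strains fall at both levels.

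Cox7a2l was then compared with and without the counts given to Gm6969. The comparison was made in 8 strains (C57BL/6J, BALB/cJ and the 6 CXB strains, 17 libraries) and 25 other inbred strains (46 libraries), with counts summed per strain. The 25 leave out C57BLKS/J and C58/J and include NZW/LacJ and SEA/GnJ. Its normalized level was 163.4 ± 23.2 CPM (SD, n = 8; 144.1 to 217) in the former and 128.1 ± 18.6 CPM (SD, n = 25; 106.5 to 172.5) in the latter, and the ranges overlapped. It was higher by 0.34 on the log2 scale (1.27-fold, SE 0.08, adjusted p = 0.0103, edgeR), where 3.77% of 18220 genes were called and 1.9% were called as higher and 1.87% as lower. No other member was called; their log2 fold changes were 0.20 (Cox4i2) to 0.49 (Cox8b), with adjusted p of 0.0914 and above. Without CXB7/ByJ, whose 1 library had a slope of -0.37, the median over the members fell from 0.33 to 0.12, and with CXB strains alone Cox7a2 was called as well (0.48, adjusted p = 0.0453). Gm6969 was lower in the same strains, 0.74 ± 0.62 CPM against 38.1 ± 12.5 CPM (log2 fold change -5.64, SE 0.61, adjusted p = 5.3e-07).

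When the counts of Gm6969 were added to those of Cox7a2l the difference was no longer seen. The sum was 164.1 ± 22.9 CPM in the 8 strains and 166.2 ± 18.9 CPM in the 25 strains, a log2 fold change of -0.03 (SE 0.06, adjusted p = 0.834). A strain-level difference in Cox7a2l alone is therefore not separable here from the share of counts given to Gm6969. Without Gm6969 the call was also lost with library totals (0.14, adjusted p = 0.215) and on log2(mean TPM + 1) (0.01, adjusted p = 0.964), and it was kept without CXB7/ByJ and without CXB6/ByJ, in CXB strains alone and in males alone. Between parents, Cox7a2l differed from C57BL/6J by -0.07 in DBA/2J (SE 0.14, adjusted p = 0.862), -0.24 in A/J (SE 0.14, adjusted p = 0.389), -0.10 in C3H/HeJ (SE 0.14, adjusted p = 0.792) and 0.07 in BALB/cJ (SE 0.14, adjusted p = 0.89). The sum differed by 0.34 in DBA/2J (SE 0.12, adjusted p = 0.0467), 0.13 in A/J (adjusted p = 0.643), 0.28 in C3H/HeJ (adjusted p = 0.136) and 0.06 in BALB/cJ (adjusted p = 0.891). The 3 C57BL/6J libraries had sums of 141.4, 146.9 and 147.9 CPM and the DBA/2J libraries 188.9 and 177.98 CPM, with no overlap.

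Within the panels the levels also moved with the division. Low-share BXD strains had a median of 150.8 CPM of Cox7a2l (132.2 to 201, 26 strains) and high-share ones 135.4 CPM (120.6 to 196, 19 strains), but by sum the medians were 151.3 and 182.2 CPM. In AXB/BXA the medians of Cox7a2l were 155.3 and 121.2 CPM and those of the sum 155.5 and 163.2 CPM (10 strains each). In BXH they were 169.2 and 115.9 CPM, and 170.3 and 171.6 CPM for the sum (3 strains each). These strains were divided by the share itself, so the values are given without a test. Males and females were also compared in the Cox7a2l/Cox7a2 ratio. Over 78 strains r was 0.50 (rho = 0.66, permutation p = 1e-05) and 0.65 without the 2 farthest strains, and 0.84 within AXB/BXA. With the sum in place of Cox7a2l it was 0.51 overall and 0.45 within AXB/BXA (permutation p = 0.12), while within BXD it was 0.16 for Cox7a2l and 0.42 for the sum, and within other inbred strains 0.73 and 0.69. The differences between these values were not tested.

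**Figure D5:**
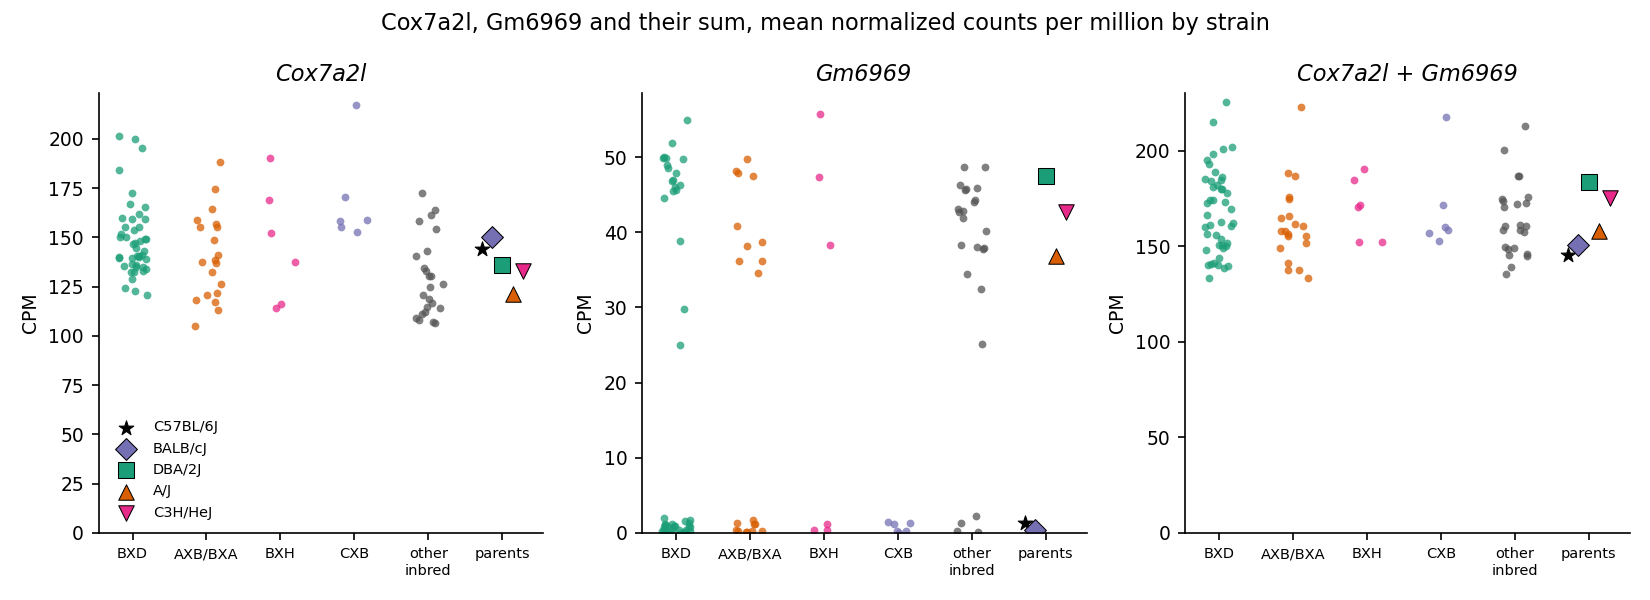
Normalized CPM of Cox7a2l, of Gm6969 and of their sum, as the mean of each strain, by panel, with the parents marked. The CXB strains lie above most other inbred strains for Cox7a2l (at least 152.8 CPM) but within their range for the sum, apart from CXB7/ByJ at 217 CPM.

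Around Cox7a2l on chromosome 17, 11 annotated genes started within 1 Mb, and 9 of them were tested. For the strain effect 8 of the 9 were called, against 73.7% of all genes. The exception was Eml4 (F = 1.36, adjusted p = 0.106), a microtubule-associated gene, and the largest value was that of Pkdcc (F = 11.7, adjusted p = 8.55e-23), a secreted protein kinase. In the comparison of C57BL/6J, BALB/cJ and CXB strains with other inbred strains 1 of 9 was called (3.77% of all genes), Gm6594 (-2.24, SE 0.55, adjusted p = 0.0189). Its level was not shared within that set, since BALB/cJ was above C57BL/6J by 6.63 (SE 1.52, adjusted p = 0.00115, edgeR). Against C57BL/6J, 5 of 9 were called in DBA/2J, 4 in A/J, 4 in C3H/HeJ and 2 in BALB/cJ (10.5%, 8.23%, 9.82% and 9.27% of all genes). The largest values in each of these parents were those of Gm6594 (6.44 to 6.80) and Rpl21-ps7 (6.14 to 7.01), with SEs from 1.47 to 1.77. Mta3 was lower in DBA/2J (-0.33, adjusted p = 0.0149) and higher in A/J (0.29, adjusted p = 0.0365) and C3H/HeJ (0.31, adjusted p = 0.0241). The genes called in DBA/2J included Pkdcc (1.004, SE 0.16, adjusted p = 5.14e-07) and Plekhh2 (-1.35, SE 0.26, adjusted p = 4.45e-05).

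Over the means of all strains the genes most like each member in log2 CPM, of 13149 compared, differed between members. The members share the dependence on the length slope given above, which was not computed for the genes like them. The closest to Cox4i1 were Uqcr11 (complex III, r = 0.98), Ndufs6 and Ndufa8 (complex I). Cox7a1 and Cox8b both had Ndufa2 among their closest 3 (r = 0.94 and 0.96), and Cox7a2 had Usmg5, Ndufa4 and Uqcrh (each r = 0.95). Cox6a2 had Atp5l (r = 0.93), a subunit of ATP synthase, and Tnni3 (r = 0.92), cardiac troponin I. The ubiquitous forms Cox6a1 and Cox8a shared 0610012G03Rik (r = 0.89 and 0.92) and correlated with each other (r = 0.93) more closely than with their own heart partners (r = 0.82 and 0.80). The ubiquitous form Cox7a2 went the other way, with r = 0.87 for its heart partner Cox7a1, against 0.80 for Cox6a1 and 0.79 for Cox8a. Cox4i2 stood apart, with Esam (r = 0.84), an endothelial adhesion molecule, Ndufa4l2 (r = 0.80), a hypoxia-inducible relative of Ndufa4 found in pericytes, and Egfl7 (r = 0.79), a gene of endothelial cells. Cox7a2l had the lowest values, with Zcrb1 (r = 0.72), Mrpl11 (r = 0.72) and Ndufa3 (r = 0.71). These correlations are descriptions, and the genes compared were measured in the same libraries.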

How the data were processed

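Heart RNA was sequenced by the authors and quantified with kallisto 0.46 against GRCm38.p6 transcripts, per the labels and the study's methods. The deposited files held estimated counts per gene and TPM (a share of all transcripts, scaled for transcript length) for each library. Groups, strain and sex were taken from the labels. Members, lists and tests were chosen with earlier results of these data known. Estimated counts were rounded and tested with edgeR 4.0.16 (R 4.3.3; quasi-likelihood F test, TMM scaling, 1 dispersion shared by all genes with a quasi-dispersion per gene, low genes filtered by sex), and p-values were adjusted by Benjamini-Hochberg over all genes tested at 0.05. Ratios were log2((TPM + 0.1)/(TPM + 0.1)), tested with 100000 permutations. All 9 members were named, other complex IV genes by the highest and lowest value of each list, and genes from the 3 most correlated with each member, of which 1 is not reported here. Library totals, size factors, other filters, limma 3.58.1 on log2 TPM, DESeq2 1.42.0, the strain as a block, and leaving out libraries were tried as alternatives. The length slope, the Gm6969 sum and leaving out CXB7/ByJ, CXB6/ByJ or libraries of steep slope were added after seeing the data. Males and females of 1 strain share a genotype, and the strain was therefore used as the pairing. Scripts were tested on simulated data. Promoters are from RefSeq and gene models from GENCODE.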

Additional observations from a re-analysis of the deposited data

Results flagged for a closer look

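Among the 6 CXB strains, CXB7/ByJ lay far above the others in 4 values: its log2 Cox8b/Cox8a ratio was 3.97 (the next strain 3.45), and its mean log2(TPM + 0.1) was 11.77 for Cox6a2 (next 10.90), 9.32 for Cox7a2 (next 8.63) and 11.87 for Cox8b (next 10.64). The strain had 1 library, a male whose length slope was -0.37. The part of that slope in these values was not tested. With 28 such tests, chance flags about 1 in 20 of them. The tests share genes and libraries, and the 4 flagged values come from 1 library, so they are not independent results.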

How the results depend on the processing

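Libraries were few for each strain, no depth limited a member, and levels of short transcripts moved with the length slope. With the strain as a replicate block, Cox4i2/Cox4i1 was lower in males by -0.0930, Cox7a2 by -0.167, Cox7a2l was higher by 0.0598 and Cox7a1 had -0.0078. The block changed no other call of a member or of a ratio of TPM. Counts of called genes moved over 1.5 times for sex with limma (7081 with a pseudocount of 1 TPM, 6930 with 0.1), for DBA/2J and C3H/HeJ with limma (2888 and 2572), and for C57BL/6J, BALB/cJ and CXB strains against other inbred strains with library totals (4591), DESeq2 (1161), limma (7288), without CXB7/ByJ (353) and without CXB6/ByJ (340). Leaving out 1 library gave 976 to 1420 genes for DBA/2J, 541 to 1128 for A/J, 825 to 1387 for C3H/HeJ and 694 to 1310 for BALB/cJ. Sex differences that turned sign, in the order library totals, limma with 1 and with 0.1 TPM, were -0.0630, -0.0594 and -0.0594 in Cox4i1, -0.0151, -0.0016 and -0.0016 in Cox6a1, -0.0344, -0.0279 and -0.0279 in Cox6a2, -0.0813, -0.0231 and -0.0231 in Cox7a1, -0.0211, -0.0429 and -0.0431 in Cox7a2l, and -0.0491, -0.0223 and -0.0224 in Cox8a. With the title number or the length slope as a covariate, Cox4i1 had -0.0040 and -0.0083 and Cox7a1 -0.0290 and -0.0259. Cox7a2l against C57BL/6J turned to 0.201 (DBA/2J) and 0.136 (C3H/HeJ) with library totals, to 0.356, 0.0710 and 0.270 in DBA/2J, A/J and C3H/HeJ with limma, and to 0.345, 0.133 and 0.284 with Gm6969 added. Without 1 library it ran from -0.262 to 0.0296 in C3H/HeJ and from -0.0275 to 0.164 in BALB/cJ. In the comparison of C57BL/6J, BALB/cJ and CXB strains, limma gave -0.117 for Cox4i1, -0.168 for Cox4i2, -0.146 for Cox6a1, -0.134 for Cox6a2, -0.0398 for Cox7a2 and -0.0817 for Cox8a; Cox4i2 was -0.0288 with library totals and -0.0702 without CXB7/ByJ, and Cox7a2l -0.0261 with Gm6969 added. The cause of these changes was not tested.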
